A study of Mus musculus with 6 samples.

Results

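The numbered zinc finger genes of the mouse, those with the symbol Zfp and a number, were examined in oocytes of aged mice with and without aminophylline. Genes were selected by symbol, by being protein coding and by a mean of at least 1 FPKM (fragments scaled by transcript length and library total) over all 6 libraries, which 153 of the 359 protein-coding genes with such a symbol met. The oocytes came from female ICR mice that were 14 months old. By the paper's methods, the mice used for sequencing had an intraperitoneal injection of equine chorionic gonadotropin, and the oocytes were punctured from large antral follicles. The aminophylline group (n = 3 libraries) had 4 mM aminophylline, a theophylline derivative that inhibits phosphodiesterases, in the drinking water for 1 week and then plain water for 3 weeks. The control group (n = 3 libraries) drank water without aminophylline and is labelled aged. How many mice and oocytes went into a library is not given in the sources used here, so p-values measure the spread between these libraries, which may be technical.

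Zinc finger proteins of the C2H2 kind hold a zinc ion with a pair of cysteines and a pair of histidines, and arrays of such fingers read DNA or RNA. In mammals many of them carry a KRAB box, a short domain that recruits the corepressor TRIM28 and, through it, the histone H3 lysine 9 methyltransferase SETDB1 and HP1 proteins. KRAB zinc finger genes lie in clusters that grew by gene duplication, and the proteins are known for silencing retroelements. ZFP57, a KRAB protein supplied by the oocyte, keeps imprinting control regions methylated in the embryo.

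The libraries held 14112341 to 33641283 reads, with the lowest total in control library 2. Oocyte identity was checked with 11 oocyte marker genes, among them Gdf9, Zp3 and Bmp15, all of which had a mean of at least 1 FPKM. Their summed FPKM was 19594 to 26938 in the control and 20511 to 24262 in the aminophylline group. The 7 granulosa and cumulus markers summed to 9.47 to 16.8 FPKM in the control and 10.1 to 13.7 in the aminophylline group. Of these, 2 had a mean of at least 1 FPKM, Cyp19a1 (mean 10.96) and Inha (1.21), and Cyp19a1 made up most of the sum. Foxl2, Amh, Fshr, Inhba and Kitl were each under a mean of 1. The 7 macrophage markers summed to 81.1 to 204 FPKM in the control and 81.5 to 100.5 in the aminophylline group, with 4 of the 7 at a mean of at least 1. C1qb alone had 72.3 to 99.8 FPKM in every library. Lyz2 (66.4 FPKM) and Fcer1g (57.6 FPKM) were high in control library 1 and at or under 0.573 FPKM in every other library, and Cd68 was 5.29 FPKM there and at or under 1.599 in the others. Adgre1, C1qa and Csf1r had means under 1. The part of these cells in the results was not tested. Theca and stroma markers stayed at or under 1.83 FPKM in sum, erythrocyte markers at or under 0.585 and endothelium markers at or under 7.05.

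The KRAB boxes of Zfp57 and of 5 members with an unadjusted p under 0.05 in the comparison are shown to let the reader see how alike these genes are. Each run is the coding strand of 90 bases, 5′ to 3′, taken from GENCODE M21 transcripts on GRCm38, and capitals mark the codons of the residues that match the KRAB pattern used to sort the members.
Zfp57 (chr17:37006080-37006169, plus strand): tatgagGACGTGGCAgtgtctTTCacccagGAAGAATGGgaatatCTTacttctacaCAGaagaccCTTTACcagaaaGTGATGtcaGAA
Zfp931 (chr2:178069848-178069937, minus strand): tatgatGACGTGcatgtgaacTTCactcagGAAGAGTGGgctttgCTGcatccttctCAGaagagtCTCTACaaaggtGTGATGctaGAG
Zfp932 (chr5:110006956-110007045, plus strand): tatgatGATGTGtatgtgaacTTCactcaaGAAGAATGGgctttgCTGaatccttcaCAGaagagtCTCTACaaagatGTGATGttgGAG
Zfp958 (chr8:4625852-4625941, plus strand): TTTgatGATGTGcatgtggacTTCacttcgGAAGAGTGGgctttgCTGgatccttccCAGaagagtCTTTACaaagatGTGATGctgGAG
Zfp82 (chr7:30066266-30066355, minus strand): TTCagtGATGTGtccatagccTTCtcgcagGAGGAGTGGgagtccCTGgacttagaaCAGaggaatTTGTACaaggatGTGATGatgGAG
Zfp707 (chr15:75973094-75973183, plus strand): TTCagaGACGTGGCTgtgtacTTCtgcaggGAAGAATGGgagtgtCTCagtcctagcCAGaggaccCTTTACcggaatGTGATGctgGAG
The boxes of Zfp931 and Zfp932 were identical at 81 of 90 bases and those of Zfp931 and Zfp958 at 80, although the 3 genes lie on different chromosomes. The box of Zfp57 shared 57 to 62 of the 90 bases with these 3, and 64 with that of Zfp707. The box of Zfp82 shared 51 to 59 with the others.

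The finger itself is shown for the member with the smallest p-value, Zfp639, and for Zfp598, whose coding sequence held a single match to the finger pattern. The pattern has 2 to 4 residues between the cysteines, 12 between the second cysteine and the first histidine and 3 to 5 between the histidines. Capitals mark the codons of the cysteines and histidines that hold the zinc.
Zfp639, first finger (chr3:32519843-32519908, plus strand): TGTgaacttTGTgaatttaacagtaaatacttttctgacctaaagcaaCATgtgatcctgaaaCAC
Zfp598, its finger (chr17:24677509-24677574, plus strand): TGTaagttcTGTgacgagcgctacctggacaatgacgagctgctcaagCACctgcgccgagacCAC
Both stretches encode 22 residues.

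Most members had a modest RNA level. The mean FPKM over 6 libraries ran from 1.01 to 143 with a median of 3.81, against a median of 7.65 over the 8734 protein-coding genes with a mean of at least 1. Of the members 26.8% reached a mean of 10 FPKM, and of those 8734 genes 44.3% did. Just inside the selection were Zfp248 (mean 1.01 FPKM), Zfp972 (1.03) and Zfp235 (1.06), and just outside it were Zfp433 (0.997), Zfp738 (0.981) and Zfp869 (0.971). Of the 206 genes outside it, 91 had a mean under 0.1 FPKM.

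The 10 members with the highest mean FPKM were Zfp296, Zfp277, Zfp655, Zfp706, Zfp207, Zfp653, Zfp58, Zfp958, Zfp957 and Zfp979. Zfp296, a zinc finger gene known from pluripotent cells, had 104, 129 and 160 FPKM in control libraries 1 to 3 and 152, 143 and 172 in aminophylline libraries 1 to 3, the highest level of the members and rank 722 among the protein-coding genes. Zfp277 had 155, 107 and 127 FPKM in the control and 125, 120 and 134 in the aminophylline group, and Zfp655 had 98.3, 65.8 and 93.2 against 81.1, 84.3 and 89.3. The groups overlapped for these 3 genes. Zfp207 encodes BuGZ, a partner of the checkpoint protein BUB3 that takes part in spindle assembly, and had 96.0, 46.7 and 82.8 FPKM in the control against 53.1, 49.2 and 56.6 in the aminophylline group. For Zfp207 control libraries 1 and 3 were above every aminophylline library, and control library 2 was below them all. Zfp957 (38.4 to 40.8 FPKM in the control and 43.7 to 49.5 in the aminophylline group) was the only one of the 10 whose groups did not overlap.

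**Figure D1:**
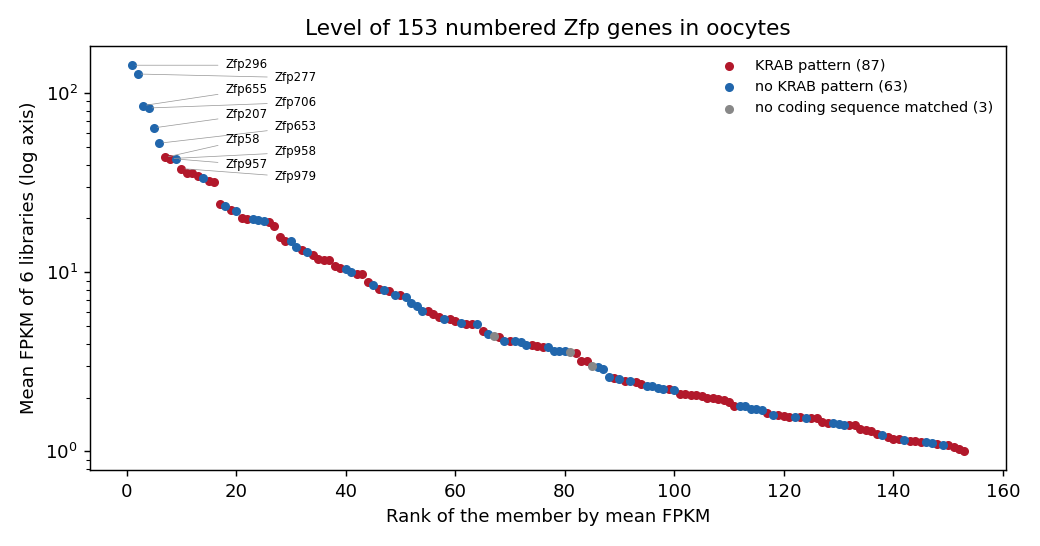
Mean FPKM over 6 libraries (log axis) of the 153 members in order of rank, colored by whether the coding sequence held the KRAB pattern, with the 10 highest members named. The 6 highest members carry no KRAB pattern, and the highest KRAB member, Zfp58, had a mean of 43.8 FPKM.

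Members were sorted by sequence into those with and those without a KRAB pattern (at least 10 of 15 fixed residues matched). Of 150 members with a matched coding sequence 87 had the pattern (58%), against 116 of 202 numbered genes below the level threshold (57.4%). The KRAB members matched 11 to 15 residues and the others 2 to 9, so no member lay at the limit. KRAB members had a median of 12 finger matches (0 to 23) and the others a median of 6 (0 to 36). A further numbered Zfp gene was the direct neighbor of 63 of the 87 KRAB members (72.4%) and of 16 of the 63 others (25.4%). The median mean level was 3.19 FPKM for KRAB members and 4.07 FPKM for the others. KRAB members were most numerous on chromosomes 7 (21 genes), 17 (17 genes) and 8 (12 genes).

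To compare the groups, limma was fitted to log2(FPKM + 1) of the 10340 genes that reached 1 FPKM in 3 or more libraries. On this scale the change of a gene with a low level is understated. Of the 153 members 151 entered the test, and Zfp248 and Zfp972 were too low. At an unadjusted p under 0.05 and a fold change over 1.5, 4 members (2.65%) were higher with aminophylline and 4 (2.65%) were lower. Of all genes tested 2.08% were higher and 1.13% were lower by the same criteria. By limma's Benjamini-Hochberg adjustment over all genes 0 members and 0% of all genes had an adjusted p under 0.05. At an unadjusted p under 0.05 alone, 7 members were higher and 9 were lower, beside 4.41% and 2.84% of all genes. With the replicate numbers as a block these counts were 11 and 15, beside 9.88% and 4.3% of all genes, while 0.455% of all genes and 0 members had an adjusted p under 0.05. The split past both thresholds moved with the scaling, to 1 higher and 5 lower after rescaling to TPM, 2 higher and 7 lower after median centring and 1 higher and 7 lower after quantile normalization. The share of all genes called under these scalings is not given here. The median log2 fold change was 0.01 over the members and 0.10 over all genes tested. In bulk oocyte RNA, fewer cells of a kind and less RNA per cell cannot be told apart.

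The 4 members that were lower were Zfp639, Zfp931, Zfp958 and Zfp82. Zfp639 (chr3:32510264-32520833), which encodes a protein with 9 finger matches and no KRAB pattern, had 15.2, 12.8 and 12.4 FPKM in the control and 6.95, 8.21 and 6.89 in the aminophylline group. Every aminophylline library lay below every control library. The log2 fold change was -0.79 (SE 0.20, adjusted p = 0.651 by limma and 0.0756 with the replicate block), from 13.5 ± 1.49 to 7.35 ± 0.748 FPKM (mean ± SD, n = 3 each). Zfp639 stayed past both thresholds when any 1 library was left out, with log2 fold changes between -0.87 and -0.71. An antisense gene, Gm37592, overlaps 3.05% of its exon bases. After each library was corrected for transcript GC content, a step chosen after the data were seen, the log2 fold change was -0.75 for Zfp639.

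Zfp931, the KRAB gene on chromosome 2 (178066446 to 178078425), had 30.02, 19.8 and 21.4 FPKM in the control and 16.2, 13.0 and 14.9 in the aminophylline group. The groups did not overlap, with a log2 fold change of -0.64 (SE 0.21, adjusted p = 0.664 by limma). It moved to -0.47 without control library 1 and to -0.56 without aminophylline library 2, both under the fold threshold. Zfp958 (chr8:4613170-4632572), among the most abundant KRAB members, had 75.1, 33.1 and 54.3 FPKM in the control and 34.5, 30.7 and 31.4 in the aminophylline group. The control libraries spread widely, and control library 2 lay within the aminophylline range. Its log2 fold change was -0.66 (SE 0.26, adjusted p = 0.682 by limma). The call was lost without control library 1 (-0.39), control library 3 (-0.62) or aminophylline library 2 (-0.63), and the difference was -0.97 without control library 2. Zfp82 (chr7:30056034-30072823) had 4.08, 2.65 and 2.69 FPKM in the control and 1.82, 1.37 and 1.98 in the aminophylline group, with no overlap. Its log2 fold change of -0.59 (SE 0.22, adjusted p = 0.682 by limma) missed the thresholds without control library 1 (-0.44) or aminophylline library 2 (-0.50). Of the transcript of Zfp82, 41.0% of the windows of 75 bases also occur in another gene, so its reads are uncertain. The same-strand gene Gm26920 covers 34.2% of the exon bases of Zfp82. With the GC correction the log2 fold changes were -0.51 for Zfp931, -0.57 for Zfp958 and -0.61 for Zfp82, the first and second of these under the fold threshold.

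The 4 members that were higher were Zfp598, Zfp956, Zfp513 and Zfp707. Zfp598 (chr17:24669687-24682023) encodes a ubiquitin ligase that senses collided ribosomes, and had 2.71, 2.71 and 4.99 FPKM in the control and 4.35, 7.88 and 8.24 in the aminophylline group. Control library 3 was above aminophylline library 1, and all other libraries were in the order of the groups. The log2 fold change was 0.80 (SE 0.29, adjusted p = 0.682 by limma and 0.0935 with the replicate block). Zfp956 (chr6:47953390-47965300) had 4.10, 4.64 and 8.46 FPKM in the control and 7.76, 10.4 and 9.69 in the aminophylline group, a log2 fold change of 0.66 (SE 0.26). Zfp513 (chr5:31198981-31202663) had 3.60, 5.55 and 7.25 FPKM in the control and 6.44, 9.86 and 10.9 in the aminophylline group, a log2 fold change of 0.65 (SE 0.27). In both genes control library 3 overlapped aminophylline library 1. The same-strand gene Zfp783 covers 9.77% of the exon bases of Zfp956, the opposite-strand gene Snx17 covers 6.58% of those of Zfp513, and the strand setting of the counting is not given in the sources used here.

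Zfp707 (chr15:75969123-75975868) was the only KRAB member that was higher past both thresholds. It had 0.562, 3.53 and 2.41 FPKM in the control and 2.93, 5.56 and 4.18 in the aminophylline group, which rest on 38 reads in control library 1 and 100 to 277 reads in the others. Control library 1 stood below the others, and control library 2 lay within the aminophylline range. Its log2 fold change was 0.82 (SE 0.36, adjusted p = 0.684 by limma) and 0.38 without control library 1. The calls of these 4 members each depended on single libraries. Without control library 1 the log2 fold change was 0.69 for Zfp598, 0.48 for Zfp956 and 0.43 for Zfp513. Without control library 2 it was 0.69, 0.56 and 0.68, without aminophylline library 2 it was 0.69, 0.58 and 0.58, and without aminophylline library 3 it was 0.66, 0.62 and 0.52, in each case no longer past both thresholds. Zfp707 also missed them without aminophylline library 2 (0.64) or 3 (0.81). With the GC correction the log2 fold change was 0.52 for Zfp598, 0.47 for Zfp956, 0.34 for Zfp513 and 0.63 for Zfp707, and none of the 4 passed both thresholds. Rescaling to TPM left Zfp598 alone past them.

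**Figure D2:**
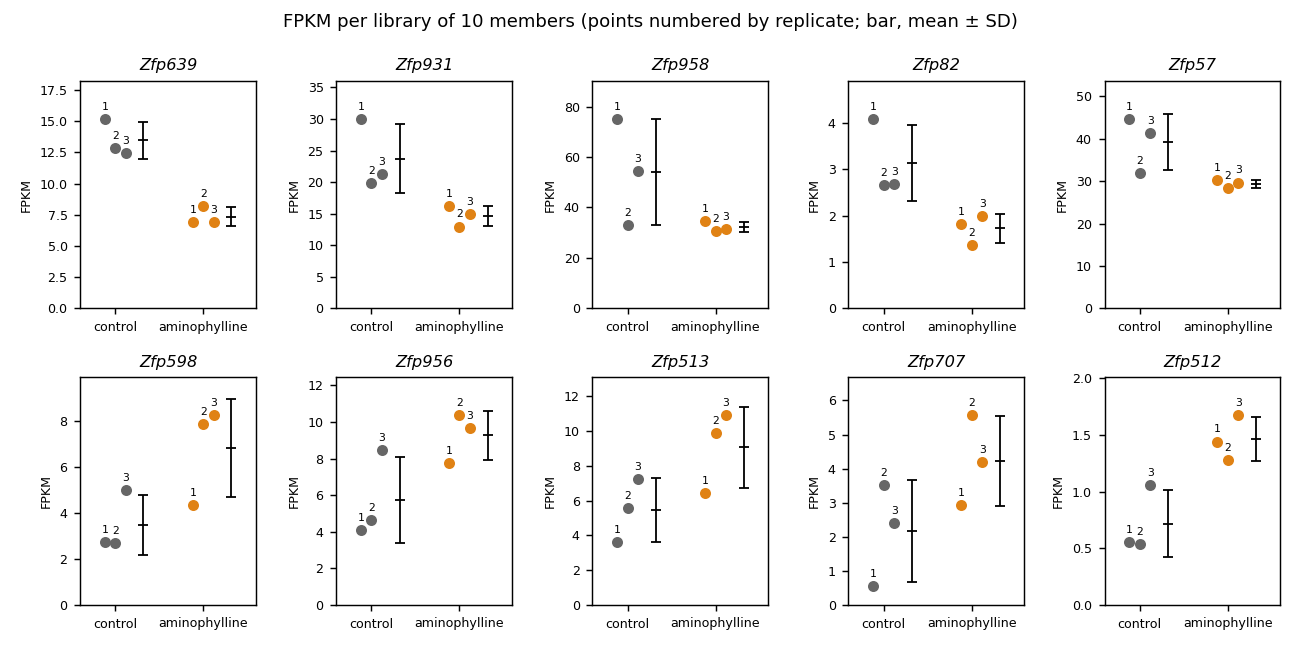
FPKM per library of 10 members, 5 lower and 5 higher with aminophylline on average, with points numbered by replicate and bars for mean ± SD (n = 3 per group). The groups do not overlap for Zfp639, Zfp931, Zfp82, Zfp57 and Zfp512, and they overlap for the other 5. Zfp512 met the selection level of 1 FPKM only through the aminophylline group.

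Members without overlap between the groups were counted as a view that needs no model. Of the 151 tested members 7 (4.64%) had every aminophylline library above every control library and 13 (8.61%) the reverse, beside 7.51% and 4.96% of all genes tested. Of the KRAB members 1 was higher and 10 were lower in this way, and of the others 6 were higher and 3 were lower. The higher KRAB member, Zfp605, averaged 0.906 FPKM in the control and 1.28 in the aminophylline group. It and Zfp512, among the higher others, met the selection level of 1 FPKM only through the aminophylline group. Members without overlap and with small differences included Zfp442, with the smallest relative spread within groups (1.21, 1.24 and 1.27 FPKM in the control against 1.08, 1.04 and 1.01 in the aminophylline group), and Zfp414, with 38.5, 40.2 and 36.0 FPKM against 29.7, 30.6 and 26.8. Zfp414 had a log2 fold change of -0.39 (SE 0.16), and 23.3% of its windows are shared with another gene. The within-group coefficient of variation was largest for Zfp707 (53.6%), Zfp820 (53.0%) and Zfp787 (48.4%).

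The KRAB members were mostly lower with aminophylline and the other members mostly higher. Of 85 tested KRAB members 55 had a log2 fold change under 0, with a median of -0.15, and of 63 others 15 did, with a median of 0.17. Over all genes tested the median was 0.10 and 35.2% were under 0. At an unadjusted p under 0.05, 7 KRAB members were lower and 1 was higher, while 2 of the others were lower and 6 were higher. These are 8.24% lower and 1.18% higher for KRAB members and 3.17% lower and 9.52% higher for the others, beside 2.84% lower and 4.41% higher among all genes tested. With the replicate block 12 KRAB members were lower and 1 was higher, and 3 of the others were lower and 10 were higher, beside 4.3% lower and 9.88% higher among all genes. The lower KRAB members were Zfp931, Zfp82, Zfp958, Zfp932, Zfp69, Zfp959 and Zfp788, and the higher members without KRAB were Zfp598, Zfp512, Zfp821, Zfp956, Zfp513 and Zfp593. Zfp512 averaged 0.716 FPKM in the control and 1.46 in the aminophylline group. It met the selection level of 1 only through the group where it was higher, so its place among the higher members is no support. Of all 16 members with an unadjusted p under 0.05, 2 (Zfp639 and Zfp931) stayed under it whichever library was left out. The difference between the classes was not tested, since genes of a class are not replicates.

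**Figure D3:**
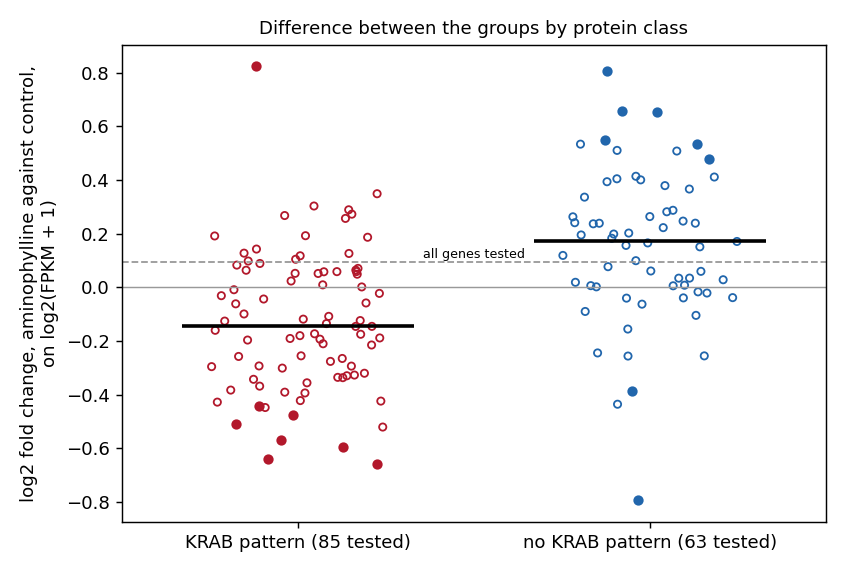
Log2 fold change on log2(FPKM + 1), aminophylline against control, of each tested member by class, with filled points for an unadjusted p under 0.05, black bars for class medians and a dashed line for the median of all genes tested (0.10). The median was -0.15 for KRAB members and 0.17 for the others, and the single filled KRAB point above 0 is Zfp707.

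Within the KRAB members the median was similar across numbers of fingers, at -0.15 with under 10 finger matches (23 genes tested), -0.12 with 10 to 14 (39 genes) and -0.15 with 15 or more (23 genes). It was -0.26 for the 36 KRAB members with a mean of at least 5 FPKM, of which 28 were under 0, and -0.10 for the 49 below that level, of which 27 were. The 45 tested KRAB members with no window shared with another gene also had a median of -0.15, and 26 of them (57.8%) were under 0, beside 64.7% of all tested KRAB members. For KRAB members with a numbered Zfp gene as direct neighbor the median was -0.12 (62 tested, 36 under 0). Without such a neighbor it was -0.29 (23 tested, 19 under 0). At an unadjusted p under 0.05, 2 with such a neighbor (3.23%) and 5 without (21.7%) were lower, beside 2.84% of all genes. By chromosome, the median was 0.06 for the 21 KRAB members on chromosome 7, -0.22 for the 17 on chromosome 17 and -0.29 for the 12 on chromosome 8, where 11 were under 0.

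The level of the class differed between control libraries by as much as between the groups. The summed FPKM of the 87 KRAB members was 899, 594 and 875 in control libraries 1 to 3 and 627, 658 and 702 in aminophylline libraries 1 to 3. Control libraries 1 and 3 were above every aminophylline library, and control library 2, which had the fewest reads, was below them all. As a share of all FPKM this was 0.165%, 0.101% and 0.172% in the control and 0.107%, 0.116% and 0.130% in the aminophylline group. Of the 87 KRAB members 65 were highest in control library 1 or 3 (29 and 36), and 39 were lowest in control library 2. The other 63 members summed to 949, 829 and 1015 FPKM in the control and 923, 919 and 1063 in the aminophylline group, and 26 of them were highest in aminophylline library 3. Without control library 2 the KRAB median was -0.30, beside 0.07 over all genes tested. In that fit 23 of 85 KRAB members and 2 of the 63 others were lower at an unadjusted p under 0.05. Without control library 1 the KRAB median was -0.09 (all genes 0.07), with 1 lower in each class. Without control library 3 it was -0.05 (all genes 0.13), with 5 KRAB members and 2 others lower. The share of all genes called in these fits is not given here. What made the control libraries differ was not tested.

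**Figure D4:**
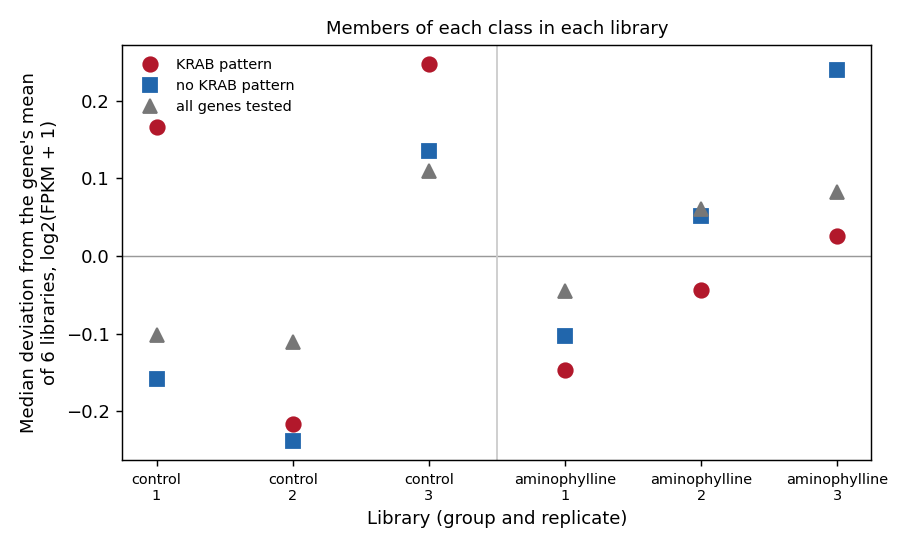
Median deviation of a class from each gene's mean over 6 libraries on log2(FPKM + 1), for KRAB members, other members and all genes tested, in each library. KRAB members lie at 0.17 and 0.25 in control libraries 1 and 3, at -0.22 in control library 2 and between -0.15 and 0.03 in the aminophylline libraries.

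Transcript GC content moved with the difference over all genes. Across bands of GC content the median log2 fold change of all genes tested rose from -0.05 below 40% (561 genes) to 0.26 at 55% or more (1677 genes), and the median GC content was 41.2% for KRAB members and 48.8% for the others. In the band below 40% the 36 KRAB members had a median of -0.17 and 6 others 0.04, and from 40% to 43% the 15 KRAB members had -0.18 and 10 others 0.02, beside -0.02 for all genes. From 43% to 46% the order was the opposite, with -0.10 for 13 KRAB members and -0.16 for 9 others beside 0.00484 for all genes. From 46% to 49% the medians were -0.20 for 10 KRAB members and 0.24 for 7 others. From 49% to 52% the median was 0.15 for 8 KRAB members and 0.24 for 10 others beside 0.12 for all genes. From 52% to 55% it was 0.09 for 2 KRAB members and 0.36 for 4 others beside 0.18. At 55% or more the order was again the opposite, with 0.82 for 1 KRAB member and 0.28 for 17 others. The KRAB members in these last bands are too few to compare the classes there. With the GC correction the median was -0.10 for KRAB members, 0.10 for the others and 0.02 for all genes. In that fit 9 KRAB members were lower and 0 were higher at an unadjusted p under 0.05, and 2 of the others were lower and 6 were higher. With the replicate block added 11 KRAB members were lower and 2 were higher, and 4 of the others were lower and 7 were higher. The share of all genes called in these 2 fits is not given here, so the counts have no background beside them. The KRAB median was under that of the other members in each of the 14 fits that gave medians of their own, between -0.30 and -0.05 against 0.06 to 0.25. That order is no check of a class difference, since all these fits draw on the same 6 libraries.

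**Figure D5:**
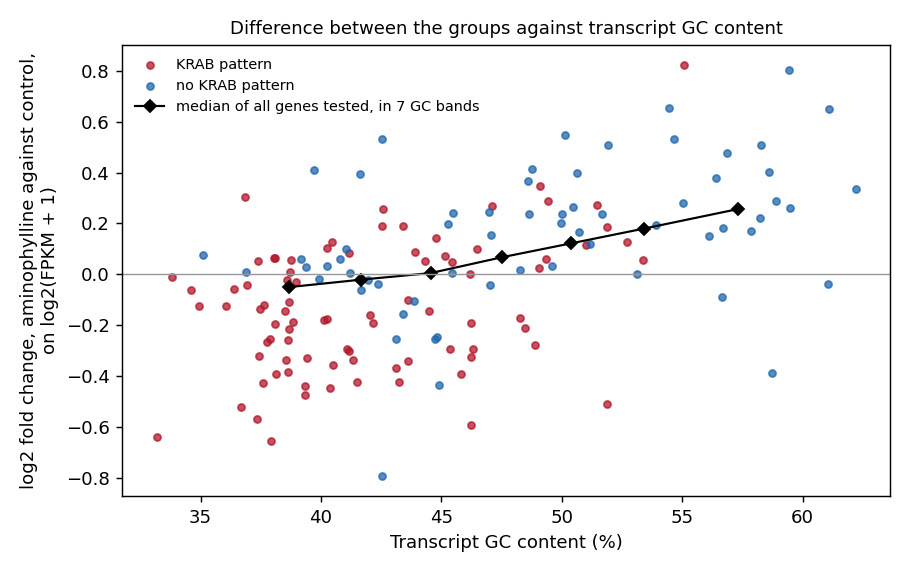
Log2 fold change on log2(FPKM + 1), aminophylline against control, of each tested member against the GC content of its transcript, with the median of all genes tested in 7 GC bands. The line rises from -0.05 to 0.26, and most KRAB points sit at low GC content and under it.

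Members with a known role were taken from a fixed list of 39 genes, of which 22 had a mean of at least 1 FPKM. Among the repressors of imprinted genes and retroelements 6 of 8 were members. Zfp57 (chr17:37001163-37010729) had 44.6, 31.8 and 41.3 FPKM in the control and 30.2, 28.4 and 29.7 in the aminophylline group. Every aminophylline library was below every control library, and the log2 fold change was -0.39 (SE 0.18, adjusted p = 0.685 by limma), which did not reach an unadjusted p of 0.05. It passed that p with the replicate block (adjusted p = 0.322 by limma), with median centring, quantile normalization, voom on the recovered reads or the GC correction, and without control library 2 (-0.53). Without control library 1 it was -0.29. Zfp445, the other KRAB factor known for imprint maintenance, had a mean of 0.840 FPKM and was no member. Zfp932, known for silencing an endogenous retrovirus family, had 20.1, 11.7 and 13.9 FPKM against 9.41, 10.1 and 9.54, with no overlap and a log2 fold change of -0.57 (SE 0.22). It was -0.36 without control library 1 and missed an unadjusted p of 0.05 then and without any 1 of the aminophylline libraries. Of its windows 32.6% are shared with another gene. Zfp708 had 14.2, 8.23 and 16.8 FPKM against 9.06, 10.8 and 11.1, but all of its windows (100%) occur in another gene as well. Zfp809, which silences retroviruses through their primer binding site, had 2.43 to 3.97 FPKM in the control and 2.84 to 3.62 in the aminophylline group. Zfp568, a repressor of a placental Igf2 transcript, had 0.816 to 1.61 against 0.845 to 2.15, and Zfp638, which acts with the HUSH complex on foreign DNA, had 1.94 to 5.44 against 3.04 to 4.76. Both groups overlapped for these 3 genes. Of the 6, 1 (Zfp932) was lower and 0 were higher at an unadjusted p under 0.05, beside 2.84% and 4.41% of all genes.

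Among members that act on RNA or ribosomes, Zfp598 and Zfp593 of 4 were higher at an unadjusted p under 0.05, beside 4.41% of all genes. Zfp593, a factor of the large ribosomal subunit, had 2.96, 2.94 and 2.67 FPKM in the control and 3.997, 4.94 and 4.202 in the aminophylline group, with no overlap and a log2 fold change of 0.48 (SE 0.20). It missed an unadjusted p of 0.05 whichever library was left out (0.40 to 0.53), and the GC correction gave 0.24. The gene E130218I03Rik on the opposite strand covers 77.9% of its exon bases, so reads of both genes may be mixed. Zfp830, a splicing factor with a role in early embryos, had 8.15 to 16.4 FPKM against 11.3 to 20.6, and Zfp106, an RNA-binding protein, had 2.11 to 3.39 against 2.58 to 3.98. The promoter factors Zfp143 (7.10 to 11.2 against 6.14 to 8.18 FPKM), Zfp148 (1.34 to 2.16 against 1.37 to 2.42) and Zfp410, which activates Chd4 (1.98 to 3.53 against 1.62 to 2.30), overlapped between groups. Zfp592 and Zfp532, partners in a chromatin complex with ZMYND8, had log2 fold changes of 0.51 (SE 0.29) and 0.40 (SE 0.25), and neither reached an unadjusted p of 0.05, although Zfp592 did with the replicate block. The ubiquitin ligase gene Zfp91 and the SUMO ligase gene Zfp451 had log2 fold changes of 0.24 each, with overlap. The pluripotency factor Zfp281 had 4.65, 4.33 and 4.58 FPKM against 3.31, 4.02 and 3.56, with no overlap and a log2 fold change of -0.26 (SE 0.20), and Zfp42 had a mean of 0.384. Zfp644, a partner of the G9a methyltransferases, had 1.56 to 1.75 against 1.57 to 2.04 FPKM, and Zfp423 had 1.21 to 1.41 against 0.992 to 1.39.

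Cofactors of KRAB factors and other silencing genes were read from a fixed list that held 23 genes of the table, of which 18 were tested. At an unadjusted p under 0.05, 4 (22.2%) were higher with aminophylline and 0 were lower, beside 4.41% and 2.84% of all genes tested. A log2 fold change above 0 was seen in 15 of the 18, with a median of 0.32, and in 6702 of all 10340 genes, with a median of 0.10. The 3 under 0 were Hdac2 (-0.28), Cbx5 (-0.11) and Pphln1 (-0.06). Trim28, the corepressor that binds the KRAB box, had 12.1, 13.5 and 21.2 FPKM in the control and 14.7, 23.3 and 29.99 in the aminophylline group, with a log2 fold change of 0.50 (SE 0.28, adjusted p = 0.721 by limma). Control library 3 lay within the range of the aminophylline group. Setdb1 had 12.7, 10.5 and 18.7 FPKM against 11.5, 17.9 and 22.01, a log2 fold change of 0.27 (SE 0.27). Neither Trim28 nor Setdb1 reached an unadjusted p of 0.05 in the main fit, although Trim28 did with the replicate block. Dnmt1, the maintenance DNA methyltransferase, had 45.9, 66.1 and 84.7 FPKM against 77.3, 107 and 132, a log2 fold change of 0.69 (SE 0.25, adjusted p = 0.682 by limma and 0.0588 with the replicate block). Mphosph8, a HUSH subunit, had 47.5, 58.5 and 59.5 FPKM against 77.4, 77.9 and 85.6 with no overlap, a log2 fold change of 0.54 (SE 0.16, adjusted p = 0.661 by limma). Mbd3 of the NuRD complex (log2 fold change 0.67, SE 0.24) and Cbx1, which encodes HP1 beta (0.40, SE 0.16), also had every aminophylline library above every control library. Of these 4, Mphosph8 stayed under an unadjusted p of 0.05 whichever library was left out. Dnmt1 missed it without control library 1 (0.46) or aminophylline library 2 (0.66) or 3 (0.51), Mbd3 without control library 1 (0.58) or aminophylline library 3 (0.59), and Cbx1 without any 1 of the aminophylline libraries (0.37 to 0.45), after rescaling to TPM (0.36) and after median centring (0.32). With the GC correction Mbd3 was at 0.33 and no longer under that p. With the replicate block 8 of the 18 were higher and 0 were lower at an unadjusted p under 0.05, beside 9.88% and 4.3% of all genes.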

How the data were processed

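The authors deposited FPKM values per gene for 6 oocyte libraries. The submitters' processing notes name the builds GRCm38 and mm10, and the program that made the values is not given in the sources used here. Reads behind each value were recovered from the ratios between libraries: 100% of 22583 genes gave whole reads within 1e-06, and read totals cover counting error only. limma 3.58.1 in R 4.3.3 was fitted with a mean trend to log2(FPKM + 1), two-sided, with Benjamini-Hochberg adjustment. Pairing by the replicate numbers in the labels was checked by the correlation of deviations from group means, which was 0.14, 0.14 and 0.55 for same-numbered libraries. Control library 2 went with aminophylline library 1 at 0.42, and the labels do not say what a number marks. The main fit was therefore left unpaired, and the numbers entered only as a block in alternative fits, whose p-values rest on a pairing that is not established. Members and lists were chosen with earlier results of these data known.

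Coding sequences were the longest of a gene in GENCODE M21, in place of the RefSeq proteins planned, and matched 150 members by NCBI gene number or symbol. Gene positions are RefSeq's on GRCm38. Shared reads were judged from windows of 75 bases of transcript found in another gene. GC content was known for 91.9% of genes tested and 152 members. Genes were named by rule: members past the thresholds, the 10 highest, the 3 on each side of the level threshold, the extremes of spread, and fixed lists. The code was tested on simulated data. Python 3.11.15, numpy 2.4.6, pandas 2.3.3 and matplotlib 3.10.9 were used.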

Additional observations from a re-analysis of the deposited data

How the results depend on the processing

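The median log2 fold change of the members was 0.01 and lay between -0.13 and 0.08 in the alternatives run, within the spread between replicates (SD 0.169). Of 265 refits of the 16 members with an unadjusted p under 0.05, 88 lost that p. The direction held in all 265, but this is no check of it. The 16 were picked by p in the same data, and fits that change only the filter, the moderation or the block return the same log2 fold change. The counts past both thresholds, 4 higher and 4 lower, moved more. They were 2 higher with no filter, 1 higher after rescaling to TPM, 2 higher and 7 lower after median centring, 1 higher and 7 lower after quantile normalization, 0 higher with an unmoderated model, and 7 higher and 9 lower with voom on the recovered reads. A fold change of 2 left 0 higher and 0 lower. The correction for GC content, added after the data were seen, gave 0 higher, and 1 higher together with the replicate block. The replicate block alone gave 4 and 4. Leaving out 1 library gave 0 to 12 higher and 1 to 13 lower, with 12 higher without control library 3 and 13 lower without control library 2. The share of all genes past both thresholds in each of these refits is not given here, so the counts show only that the calls moved. The smallest adjusted p of a member in any setting was 0.0756, by limma with the replicate block. The lowest count of a member in a library was 9 reads, for Zfp972, which was not tested, in control library 2.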
